A study of Homo sapiens and Mus musculus with 20 samples.

Results

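H3K27me3, trimethylation of lysine 27 of histone H3, was compared between ARP1 cells with JmjD-dead KDM6A and ARP1 cells with wild type KDM6A (WT). The comparison used every region in the authors' H3K27me3 lists on the 22 autosomes and X, 37236 regions in the JmjD-dead list and 17355 in the WT list. These came from 2 of the 20 libraries of the series. Most H3K27me3 regions that JmjD-dead cells had and WT cells lacked were shallow, and they made up a larger share of the regions away from H3K27ac (92.8%) than of those on it (66.6%). WT regions without a JmjD-dead counterpart split the same way, at 73.2% away from H3K27ac and 40.9% on it. Gains outnumbered losses in the full lists and in 10 of 12 other settings. That order turned once an equal level over the library mean was asked of both, which kept 17355 WT and 10990 JmjD-dead regions.

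H3K27me3 is written by the Polycomb repressive complex PRC2, through EZH2 or EZH1, and marks silenced genes, classically HOX clusters and other developmental regulators. KDM6A (UTX) is a demethylase that removes it through a JmjC domain, and the protein also belongs to the COMPASS-like complexes of KMT2C and KMT2D, which place H3K4me1 at enhancers. H3K27ac occupies the same lysine on another histone tail and marks active promoters and enhancers, so a single H3 tail cannot carry both. KDM6A is recurrently deleted or mutated in multiple myeloma, a cancer of plasma cells.

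ARP1 is a human multiple myeloma line. The JmjD-dead group carries the change that its title gives as H1146E, in the demethylase domain, and the WT group is labelled KDM6A wild type. Neither group's labels name a treatment, and they do not say whether each line was a clone, or whether the mutant protein was edited in place or added back. With 1 library per group nothing below is checked by replicates or tested, and the 95% intervals (exact Clopper-Pearson) cover counting error only. Lists of H3K27ac and input DNA in the same genotypes, and of H3K27me3 in KDM6A knockout (KO) cells, were used beside them. H3K27ac regions lay within 2.5 kb of an end of all 10 plasma cell markers examined in JmjD-dead and in WT cells, and of 0 and 1 of 5 defining B cell markers. Of a wider list of 20 B cell genes, 9 in JmjD-dead and 9 in WT cells had such a region, among them CD79A and SPIB in both. For T and NK markers the counts were 3 and 3 of 7, for myeloid and erythroid markers 1 and 0 of 6, and for epithelial and stromal markers 4 and 3 of 8.

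The libraries differed in depth. After the authors' removal of duplicates and filtering, the H3K27me3 library of JmjD-dead cells held 10449019 fragments, and that of WT cells 5026016. Both H3K27ac libraries held similar numbers, 31171803 in JmjD-dead and 30772474 in WT cells. A region was called from as few as 5 piled-up fragments in JmjD-dead cells and 4 in WT cells, which is 6.43 and 11.3 times the mean of its own library. The JmjD-dead list therefore reached lower levels than the WT list. Depth and genotype cannot be told apart for the shallow regions, or for JmjD-dead regions little above the lowest level of the WT list.

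The genome's sequence under most regions was not used here, but RefSeq (GRCh38.p14) gives promoter windows of 300 bp for 15811 genes. Among the genes of the 18 lists described further on, 5 had an H3K27me3 region over that window. They are printed because these are the windows where the comparison can be read at a promoter. Each runs 5′ to 3′ along the gene's strand, with capitals marking motif matches on either strand. The GC box, searched as GGGCGG, occurs in 58.5% of all promoter windows. The CCAAT box, searched by those letters, occurs in 36.3%. The TATA box, searched as TATAAA, occurs in 9.64%, and the ETS core, searched as CCGGAAG, in 14.2%. A match is a description of the letters and not a binding site.
CR2, chr1:207454078-207454377, + strand, region in JmjD-dead: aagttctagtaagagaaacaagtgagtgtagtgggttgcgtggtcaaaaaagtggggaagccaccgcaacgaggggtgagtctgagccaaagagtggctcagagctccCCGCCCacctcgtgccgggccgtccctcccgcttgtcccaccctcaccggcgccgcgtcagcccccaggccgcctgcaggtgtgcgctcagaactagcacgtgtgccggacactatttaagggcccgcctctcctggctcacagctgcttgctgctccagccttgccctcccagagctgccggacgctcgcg
IFIT3, chr10:89327747-89328046, + strand, region in JmjD-dead: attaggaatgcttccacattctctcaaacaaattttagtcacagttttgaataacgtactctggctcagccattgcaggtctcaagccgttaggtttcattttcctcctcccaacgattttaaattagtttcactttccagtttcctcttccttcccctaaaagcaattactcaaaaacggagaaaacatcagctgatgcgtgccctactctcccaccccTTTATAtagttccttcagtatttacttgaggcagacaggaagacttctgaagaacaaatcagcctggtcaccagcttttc
PCGF2, chr17:38746579-38746878, − strand, region in JmjD-dead: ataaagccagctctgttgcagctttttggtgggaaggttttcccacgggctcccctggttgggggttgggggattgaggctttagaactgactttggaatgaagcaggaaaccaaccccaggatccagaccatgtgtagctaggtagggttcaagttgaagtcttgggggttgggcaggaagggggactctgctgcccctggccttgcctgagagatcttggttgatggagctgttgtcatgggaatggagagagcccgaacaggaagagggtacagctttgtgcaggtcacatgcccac
SDC1, chr2:20225426-20225725, − strand, region in JmjD-dead: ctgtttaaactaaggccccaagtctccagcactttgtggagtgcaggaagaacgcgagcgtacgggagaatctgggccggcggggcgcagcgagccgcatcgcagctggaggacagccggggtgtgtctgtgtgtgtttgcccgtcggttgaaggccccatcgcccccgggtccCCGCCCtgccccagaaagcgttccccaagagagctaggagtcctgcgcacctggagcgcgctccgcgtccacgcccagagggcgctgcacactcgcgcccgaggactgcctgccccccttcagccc
LGALS9, chr17:27630938-27631237, + strand, region in WT: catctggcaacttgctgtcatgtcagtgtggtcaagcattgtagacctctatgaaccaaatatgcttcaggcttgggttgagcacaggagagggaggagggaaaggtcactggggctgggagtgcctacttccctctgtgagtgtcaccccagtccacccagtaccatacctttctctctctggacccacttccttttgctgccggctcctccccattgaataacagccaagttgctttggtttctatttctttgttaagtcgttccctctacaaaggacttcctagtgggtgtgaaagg

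CR2 encodes complement receptor 2, a B cell surface protein, and its window holds 1 GC box. The JmjD-dead region over it reached 7 fragments, lay at chr1:207454157-207454444 and was off H3K27ac. IFIT3 is an interferon-induced antiviral gene whose window holds 1 TATA box match. Its JmjD-dead region, at chr10:89327965-89328309, reached 5 fragments, the fewest in that list, and was off H3K27ac. PCGF2 encodes a subunit of Polycomb repressive complex 1. The JmjD-dead region over its window, at chr17:38746601-38746946, reached 7 fragments and lay on H3K27ac, and the window holds none of the 4 motifs. That region lay more than 2.5 kb from either gene end. PCGF2 counts as gained further on by another region, of 8 fragments, at chr17:38731258-38731587. The region at SDC1, which encodes the plasma cell marker CD138, reached 10 fragments in JmjD-dead cells and extended into the window, which holds 1 GC box. WT cells had a narrower region of 5 fragments inside the same stretch that lay outside the window, so SDC1 counts as marked in both. LGALS9, the gene of galectin-9, had a WT region of 5 fragments over its window, which holds none of them, and a JmjD-dead region of 8 fragments elsewhere within 2.5 kb of a gene end. CR2 and PCGF2 were reached by the rule for named genes, and IFIT3, SDC1 and LGALS9 were added after their values were seen.

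JmjD-dead cells had more H3K27me3 regions than WT cells, and in the full lists a smaller share of them lay on H3K27ac. A region was called on H3K27ac when it overlapped, by at least 1 bp, an H3K27ac region of the same genotype. This held for 18833 of 37236 regions in JmjD-dead cells (50.6%, 95% interval 50.1 to 51.1) and 11177 of 17355 in WT cells (64.4%, 63.7 to 65.1). The regions covered 20.4 Mb in JmjD-dead cells and 7.67 Mb in WT cells, with median lengths of 337 and 293 bp. Among regions with a −log10 q of at least 5, 79.0% of 7579 in JmjD-dead cells and 90.8% of 3023 in WT cells lay on H3K27ac. The order of the genotypes turned when the JmjD-dead list was cut to the length of the WT list, with 66.1% on H3K27ac, or to its lowest level over the library mean, with 73.2%, against 64.4% in WT cells. In both genotypes the strongest H3K27me3 regions of these lists therefore lay at acetylated chromatin more often than the rest.

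A gained region is a JmjD-dead region that overlapped no WT region, and a lost region is a WT region that overlapped no JmjD-dead region. In all, 29636 of the JmjD-dead regions were gained (79.6%) and 9095 of the WT regions were lost (52.4%). On H3K27ac, 12552 of 18833 JmjD-dead regions were gained (66.6%, 66.0 to 67.3), and off it 17084 of 18403 (92.8%, 92.5 to 93.2). Losses on H3K27ac were 4573 of 11177 WT regions (40.9%, 40.0 to 41.8), and off it 4522 of 6178 (73.2%, 72.1 to 74.3). In number, more gains in the full JmjD-dead list fell off H3K27ac than on it, and the WT losses divided almost evenly. The order of the gains turned with a −log10 q of at least 5 in both lists (4156 on and 1512 off), with that threshold against all WT regions (2559 and 1259), at equal list lengths (6467 and 5098) and at an equal level over the library mean (3978 and 2426). Regions found in both genotypes were longer, with a median on H3K27ac of 649 bp in JmjD-dead cells and 392 bp in WT cells, against 352 bp for gained and 272 bp for lost regions. They also spread further in JmjD-dead cells, covering 7.03 Mb on H3K27ac there and 4.27 Mb in WT cells.

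**Figure D1:**
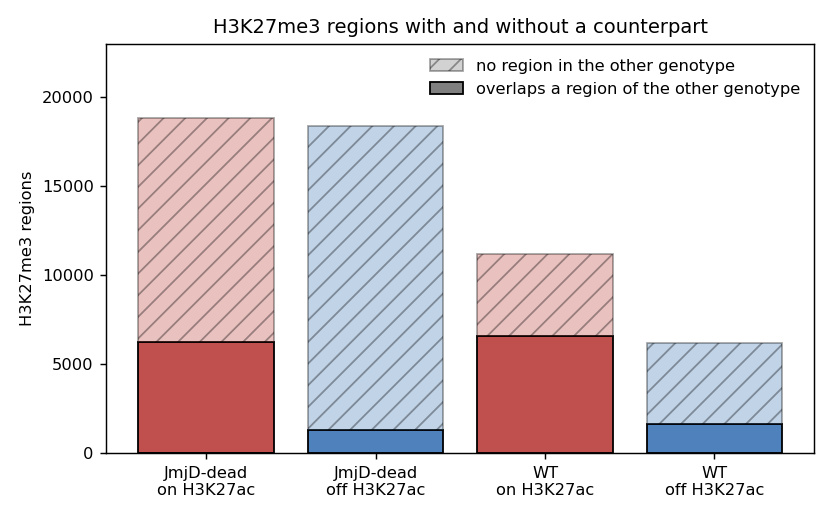
Numbers of H3K27me3 regions on and off H3K27ac of the same genotype in JmjD-dead and WT cells. Solid bars are regions that overlap a region of the other genotype and hatched bars those that do not. The hatched part is 92.8% of JmjD-dead regions off H3K27ac and 40.9% of WT regions on it.

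The difference between regions on and off H3K27ac held at each number of fragments at the region's summit, apart from the few WT regions of 15 or more. JmjD-dead regions of 5 fragments were gained in 88.1% of cases on H3K27ac and 97.2% off it. Those of 7 to 9 fragments were gained in 74.3% and 91.9%, those of 10 to 14 in 54.1% and 80.8%, and those of 15 or more in 22.8% and 57.1%. Deep JmjD-dead regions on H3K27ac thus mostly had a WT counterpart, and shallow ones mostly had none.

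WT regions showed the same slope. Of those with 4 fragments, 63.2% on H3K27ac and 82.4% off it were lost, and of those with 7 to 9 fragments 29.2% and 52.7%. At 10 to 14 fragments 4.59% on H3K27ac and 18.6% off it (8 of 43) were lost. At 15 or more, 2 of 478 WT regions on H3K27ac (0.418%) and 0 of 5 off it were lost. A count of 0 of 5 allows a share of up to 52.2%. Nearly every deep WT region was therefore also listed in JmjD-dead cells.

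**Figure D2:**
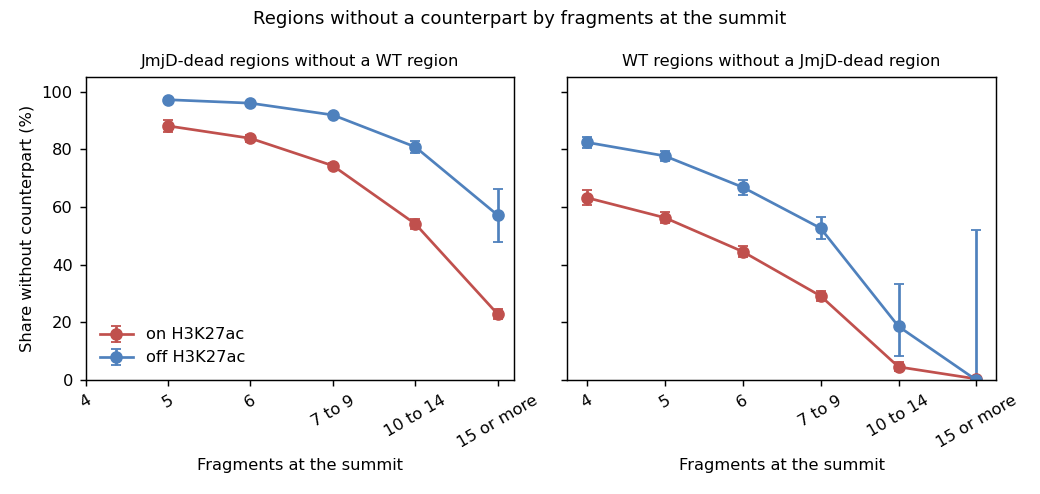
Share of H3K27me3 regions without a counterpart (%) by the number of fragments piled up at the summit, for JmjD-dead regions on the left and WT regions on the right. Bars are exact 95% intervals. Shares decrease with depth in both lists, from 97.2% to 57.1% off H3K27ac in JmjD-dead cells, and regions off H3K27ac lie above those on it in every bin except WT regions of 15 or more.

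With a −log10 q of at least 5 in both lists, 69.4% of JmjD-dead regions on H3K27ac and 94.9% of those off it were gained, and 28.3% of WT regions on H3K27ac and 63.7% of those off it were lost. At this threshold the last JmjD-dead regions inside had 10 fragments and a fold enrichment of 6.19, and the first outside had 9 and 5.62. In WT cells the last regions inside had 8 fragments and a fold of 6.65, and the first outside 7 and 5.91. Looking for each such region in the full list of the other genotype gave 42.7% gained on H3K27ac (2559 of 5986) and 79.0% off it (1259 of 1593). In the other direction it gave 12.3% lost on H3K27ac (339 of 2745) and 38.1% off it (106 of 278). By this measure most strong WT regions were present in JmjD-dead cells, while strong JmjD-dead regions off H3K27ac mostly had no listed WT region. These searches were not alike, since the WT list began at 11.3 times its library mean and the JmjD-dead list at 6.43. That WT level meant 9 fragments in JmjD-dead cells. Of the 1593 strong JmjD-dead regions off H3K27ac, 1474 had only 10 to 14. Depth and genotype therefore cannot be told apart in this contrast.

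Cutting the JmjD-dead list to the 17355 best-ranked regions gave 56.4% gained on H3K27ac and 86.6% off it, with 51.6% and 81.3% lost. The cut fell among 8049 JmjD-dead regions with the same −log10 q, which were ordered by fold, length and position. At equal length 11565 JmjD-dead regions were gained and 10787 WT regions lost, so the excess of gains was small. With a −log10 q of at least 5 in both lists, 5668 JmjD-dead regions were gained and 953 WT regions lost. Requiring the same level over the library mean kept all 17355 WT regions, down to 4 fragments, so the list lengths were unequal. It meant 9 fragments in JmjD-dead cells and left 10990 JmjD-dead regions. Of these, 6404 were gained and 11983 WT regions were lost, so that the order of gains and losses turned. Shares of gains were then 49.4% on H3K27ac and 82.5% off it, and of losses 59.4% and 86.5%. This last threshold was added after the data had been seen. Under all 12 other settings tried, both shares were higher off H3K27ac than on it, by 14.4 to 36.3 percentage points for gains and 25.8 to 37.4 for losses.

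Gained regions were then set against the H3K27ac that each genotype kept or lacked. The question here was whether H3K27me3 appeared where the acetyl mark was no longer listed. Of 18140 WT H3K27ac regions that had no JmjD-dead H3K27ac and no WT H3K27me3, 12.6% (12.2 to 13.1) held a JmjD-dead H3K27me3 region. Of 41334 that kept H3K27ac in JmjD-dead cells, 19.0% (18.6 to 19.3) did. Kept regions were longer, with a median of 762 bp against 239 bp, and in regions of 181 to 352 bp the shares were 11.7% and 19.3%. JmjD-dead H3K27me3 therefore appeared less often at H3K27ac regions missing from the JmjD-dead list than at those kept at like length as well. Among gained regions off H3K27ac, 12.0% (11.6 to 12.5) lay on a WT H3K27ac region, and among lost regions off H3K27ac 12.7% (11.8 to 13.7) lay on a JmjD-dead one. Gained regions on H3K27ac lay on WT H3K27ac as well in 76.2% of cases, and lost regions on H3K27ac lay on JmjD-dead H3K27ac in 82.5%.

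The summits of the regions, with 100 bp either side, were next set against other ARP1 lists. H3K4me1 of WT cells, the enhancer mark, was found at 69.6% of gained regions on H3K27ac, 83.6% of JmjD-dead regions shared with WT and 79.7% of lost regions on H3K27ac. Off H3K27ac it was found at 16.8% of gained, 33.8% of shared and 14.8% of lost regions. Most H3K27me3 regions on H3K27ac were therefore at chromatin that also carried H3K4me1 in WT cells.

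Regions of a KDM6A antibody in WT cells lay at 32.5% of gained regions on H3K27ac, 47.4% of shared and 11.8% of lost ones. The same antibody in KO cells, which lack its target by their label, gave 17.5%, 31.6% and 4.42%. KDM6A regions seen in WT and not in KO cells lay at 13.6% of gained, 14.4% of shared and 7.76% of lost regions. An HA antibody in a line with HA-tagged protein gave 31.9%, 50.4% and 18.0%, and in cells without the tag 30.3%, 46.4% and 6.63%. Without their background lists, HA regions lay at 9.86% of gained, 8.95% of shared and 13.8% of lost regions on H3K27ac, an order opposite to that of the KDM6A antibody. H3K27me3 of KO cells was listed at 13.0% of gained regions on H3K27ac, 43.8% of shared and 8.31% of lost ones.

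**Figure D3:**
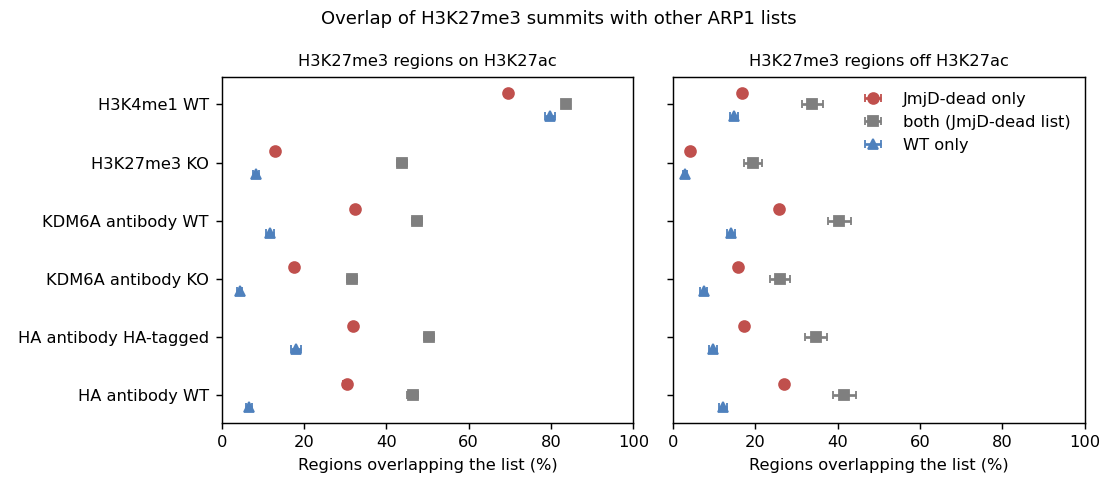
Share of H3K27me3 summits (%) that lie on regions of other ARP1 lists, for regions on H3K27ac (left) and off it (right). Points are regions in JmjD-dead cells only, in both, and in WT only, with exact 95% intervals. Shared regions overlap most with each of the 6 lists plotted, for example 83.6% with WT H3K4me1 on H3K27ac.

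Few of these regions lay at promoters. The midpoint lay within 1 kb of an annotated start in 2.94% of JmjD-dead regions and 2.71% of WT regions, against 13.0% and 13.4% of H3K27ac regions of the same genotypes (chromosome 8 was not used for this measure). The share was 4.95% for gained regions on H3K27ac and 1.79% for those off it, and 3.83% and 2.07% for lost regions. Gained regions on H3K27ac lay inside gene bodies, away from gene ends, in 33.1% of cases (32.3 to 33.9), and lost ones in 47.3% (45.8 to 48.7). Off H3K27ac the shares were 33.0% and 42.5%. Gained regions lay outside genes in 49.4% of cases on H3K27ac, and lost ones in 34.1%. Regions lost in JmjD-dead cells were thus more often intragenic than those gained, on and off H3K27ac. Leaving out the crowded bins described further on took gains on H3K27ac from 12552 to 7912 and losses from 4573 to 3929. Positions were not counted without those bins, so their part in this contrast was not tested.

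At the promoter windows themselves, 144 genes had an H3K27me3 region in JmjD-dead cells only, 34 in WT only and 35 in both. CpG-rich promoters are the usual sites of Polycomb in mammals. The median number of CpG in the 300 bp was 10 in JmjD-dead-only windows, 8.5 in WT-only windows and 11 in those marked in both, against 22 in all windows. Among windows with H3K27ac in both genotypes the medians were 15, 12 and 11, against 27 in 8513 windows. The CCAAT box was in 31.9% of JmjD-dead-only windows and 23.5% of WT-only ones, against 36.3% of all.

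JmjD-dead over WT, the number of regions was 2.15 for the genome as a whole and between 1.91 and 2.51 on 19 of the 23 chromosomes. Chromosome 3 had 774 regions in JmjD-dead cells and 727 in WT cells, a ratio of 1.06. It held 2.08% of the JmjD-dead list and 4.19% of the WT list, and 74.4% of its WT regions were lost. Chromosome 16 had 955 regions in JmjD-dead cells and 684 in WT cells, a ratio of 1.40. H3K27ac moved the same way by less on chromosome 3, with 4.81% of the JmjD-dead list and 5.72% of the WT list, and input with 3.97% and 4.74%. For chromosome 16 the H3K27ac shares were 3.33% and 3.68%, and the input shares 3.57% and 4.40%. Regions were called against the mean of the same library, so copy number can move such counts, and its part was not tested. Chromosomes 18 and 20 had the highest ratios, 2.87 and 2.76. Without chromosomes 3 and 16, gained shares were 66.9% on H3K27ac and 92.9% off it, and lost shares 39.0% and 72.3%.

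**Figure D4:**
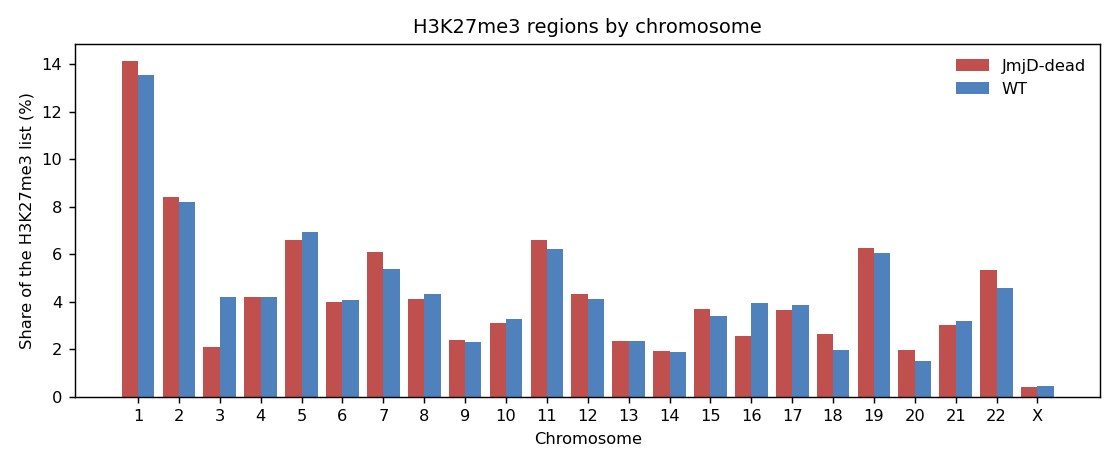
Share of each genotype's H3K27me3 list (%) on each chromosome, JmjD-dead left of WT. Chromosome 3 holds 2.08% of the JmjD-dead list and 4.19% of the WT list.

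Many regions were crowded. Over 10 times the median number per 1 Mb bin was reached in 102 bins, which held 42.3% of JmjD-dead regions on H3K27ac and 38.9% of those off it, and 37.8% and 31.8% of WT regions. Without those bins the gained shares were 72.8% on H3K27ac and 94.3% off it, and the lost shares 56.5% and 83.2%. Joining regions less than 5 kb apart gave 1011 stretches of at least 10 kb in JmjD-dead cells and 262 in WT cells, and 666 in JmjD-dead cells at equal list length. The longest stretch in JmjD-dead cells lay at chr2:9271482-9709270, 438 kb with 257 regions that covered 51.0% of it. WT cells had 140 regions there, covering 20.9%, and KO cells 161, covering 21.3%. It holds ASAP2, ITGB1BP1, CPSF3, which encodes the endonuclease of mRNA 3′ end processing, IAH1, ADAM17, which encodes a protease that sheds cell surface proteins, and YWHAQ, a 14-3-3 protein gene. H3K27ac was also dense there, with 256 regions in JmjD-dead cells and 261 in WT cells, while input listed 2 and 4. From 9 to 14 Mb of chromosome 2 lay 1434 JmjD-dead regions (3.85% of the list) and 607 WT regions (3.50%). The block was therefore dense in both genotypes.

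The strongest regions without a counterpart were few. On H3K27ac the gains were led by regions of 58, 53 and 51 fragments on chromosomes 13, 17 and 1, at chr13:109424132-109424332, chr17:24740191-24740461 and chr1:125171126-125171333, none near a gene. The first of them lay on an input region. Off H3K27ac the leading gain was a region of 26 fragments, at chr12:130646110-130646422, inside RIMBP2, a gene of presynaptic active zones. Among losses on H3K27ac stood out a WT region of 48 fragments and 36.2-fold enrichment, at chr1:237117437-237117762, inside RYR2, the gene of the cardiac calcium release channel. The next lay at chr1:58518254-58518633, where DAB1 and OMA1 overlap, with 15 fragments. Off H3K27ac the leading losses had 11 fragments each and included regions inside FERRY3 and TTC28. Apart from RYR2, lost regions were no deeper than 15 fragments.

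By gene, H3K27me3 lay within 2.5 kb of an end of 4510 of 19970 protein-coding genes in JmjD-dead cells, 2568 in WT cells and 2169 in KO cells. JmjD-dead cells gained it at 2852 of 17402 genes unmarked in WT (16.4%, 15.8 to 16.9), and lost it at 910 of 2568 marked genes (35.4%, 33.6 to 37.3). Genes with H3K27ac at their ends in both genotypes gained it in 25.0% of 9579 cases (24.1 to 25.9), and genes with H3K27ac in neither in 4.84% of 7196 (4.35 to 5.36). So 2394 of the 2852 gained genes were acetylated in both lines. Of the marked genes, 33.3% of those with H3K27ac in both and 81 of 112 (72.3%) of those with H3K27ac in neither lost it. The order of gains and losses turned at equal list length, with 1056 genes gained and 1485 lost, and with an equal level over the library mean, with 522 gained and 1848 lost.

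A stricter set asked for a −log10 q of at least 5 in 1 genotype and no region at all in the other. It held 256 gained genes (1.47% of those unmarked in WT), 219 of them with H3K27ac in both, and 38 lost genes, which is 10.7% of the 355 genes with a WT region of that strength and 1.48% of all genes marked in WT. Of the 256, 113 also held a region in KO cells, as did 8 of the 38 lost genes, beside 2169 of all 19970 genes. Of the 219 with H3K27ac in both, 98 did, beside 2027 of all 11973 genes with H3K27ac in both. Among genes of the lists that were marked in both genotypes, the best-ranked regions of JmjD-dead and WT cells overlapped at 19 of 49, so fragment numbers given side by side can belong to different sites. Such numbers also come from libraries of unlike depth and do not compare levels between the genotypes. KDM6A itself had no H3K27me3 region near its ends in either genotype and an H3K27ac region in both. Region lists carry no bases, so the H1146E label itself was not checked.

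The genes with the highest ranked gains on H3K27ac served varied functions. MLC1, a membrane protein gene of astrocytes, shared with TTLL8 a JmjD-dead region of 16 fragments that lay on an input region. CHD1L, a chromatin remodeller, and PRKAB2, an AMPK subunit, shared 1 of 13 fragments, and so did ANGPTL6, PPAN, a ribosome biogenesis factor, and the readthrough gene PPAN-P2RY11. TNNT3, which encodes fast skeletal troponin T, and TBRG4, a mitochondrial RNA-binding protein gene, had 13 each. GAL3ST2 and NEU4, a sialidase gene, shared a region of 12. None of these had a WT region within 10 kb of an end. Of these 11 genes all but TNNT3 had H3K27ac in both genotypes.

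Off H3K27ac the leading gains lay at LOC124904605, with 15 fragments, and at FZD4, a Wnt receptor gene, SEPTIN8, GAGE12J, FAM90A16 and FAM90A20, with 13 each. Members of the GAGE and FAM90A families are close to identical in sequence, which leaves the placement of their reads uncertain. Fold enrichment at these leading gene-end regions ran from 7.31 to 9.56 for gains and from 6.65 to 8.13 for losses. Lost regions at gene ends reached fewer fragments, in the library of lower depth. On H3K27ac they were led by FAM83G with 10 fragments in WT cells, MOSPD3 and DGKD, a diacylglycerol kinase gene, with 9, and GALNT4 with POC1B-GALNT4, the antiviral gene ZC3HAV1 and the proteasome subunit gene PSMD3 with 8. Off it, NDUFA1, of respiratory complex I, and RNF113A shared a WT region of 9. URB1, ESPL1, which encodes separase, MTFMT, PRR12, and MPZL2 with MPZL3 had 8. All 15 genes with these WT regions kept H3K27ac near their ends in both genotypes.

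Classical Polycomb targets held few regions. Of 39 HOX genes, 4 were marked in JmjD-dead cells and 3 in WT cells, HOXB4 being marked in both, at different sites, with 9 and 8 fragments. HOXB9 and HOXB13 were gained, with 6 fragments each in JmjD-dead cells, and HOXC10 and HOXB7 were lost, with 5 and 4 in WT cells. Of 60 other developmental regulators 2 were marked in JmjD-dead cells and 1 in WT cells, namely FOXC1 and IRX5, with 8 and 6 fragments, and NEUROG2, with 5 in WT cells. Of 30 neuronal genes 1 was marked in JmjD-dead cells, GRIN1, and 0 in WT cells. Over all genes 22.6% were marked in JmjD-dead cells and 12.9% in WT cells, so these lists held fewer marked members than genes at large in both.

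Of 40 secreted signalling ligands and antagonists 10 were marked in JmjD-dead cells (25.0%) and 2 in WT cells (5.00%), beside 22.6% and 12.9% of all genes. The 8 gained were LEFTY1 and LEFTY2, inhibitors of Nodal, FGF8 and FGF9, fibroblast growth factors, WNT6, the Wnt antagonists SFRP2 and SFRP4, and BMP8A, which is 21.1% of the members unmarked in WT and near the 16.4% of all such genes. The region at LEFTY2, at chr1:225940717-225941166, had 12 fragments in JmjD-dead cells and none was listed in WT cells. It was the only one of the 8 in the stricter set, the others having 5 to 9. Of the 8 gained genes, 4 had H3K27ac in both genotypes.

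Genes of antigen presentation were often marked in both genotypes. The class I and antigen processing list had 22 genes, of which 14 were marked in JmjD-dead cells and 9 in WT cells. The 7 gained were TAPBP with 9 fragments, which encodes tapasin, HLA-E with 8, B2M, the class I light chain gene, HLA-C and PSMB10 with 7, and TAP2, of the peptide transporter, and PSME2 with 6. All 7 had H3K27ac in both genotypes, as did 12 of the 13 members unmarked in WT, and 25.0% of all such acetylated genes were gained. HLA-B was lost, with 6 fragments in WT cells, though reads may be shared out among closely similar HLA genes. None of the 7 gained genes was in the stricter set. PSMB8, with 7 fragments in JmjD-dead cells and 9 in WT cells, and CALR, with 12 and 6, were marked in both by regions that overlapped. TAP1 was marked in both at different sites, with 10 and 9. Its JmjD-dead region is the one counted for PSMB9 and its WT region the one counted for PSMB8. Neighbouring members of this list can thus share a region, and the counts of marked genes are not counts of separate regions.

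Of 16 MHC class II genes 2 were marked in JmjD-dead cells and 3 in WT cells, beside 22.6% and 12.9% of all genes. Among all genes, 35.4% of those marked in WT were lost and 16.4% of those unmarked were gained. The transactivator gene CIITA, with 7 fragments in WT cells, and HLA-DMB, with 5, were lost, and RFX5 was gained with 7. At CIITA the WT region lay at chr16:10940001-10940561, near the gene's end coordinate and off H3K27ac, on the chromosome whose JmjD-dead over WT number of regions was 1.40.

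Among 32 interferon-stimulated genes 9 were marked in JmjD-dead cells (28.1%) and 5 in WT cells (15.6%), near the 22.6% and 12.9% of all genes, and 22.2% of those unmarked in WT were gained, near the 16.4% of all genes. Gained were IFITM3 with 9 fragments, IRF1, BST2 (tetherin) and OAS1 with 7, GBP1 with 6 and IFIT3 with 5. Lost were USP18, which removes ISG15 from proteins, with 8 fragments in WT cells, and OAS3 with 6. USP18 was in the stricter set. Of 26 immune ligand and adhesion genes 9 were marked in JmjD-dead cells and 6 in WT cells, with MICA, a ligand of NKG2D, NECTIN2, ICAM2 and ICAM3 gained and ICAM1 lost. The gains were 4 of the 20 members unmarked in WT (20.0%), near the 16.4% of all genes. Of members marked in WT, 2 of 5 interferon-stimulated and 1 of 6 immune ligand and adhesion genes were lost. Among all genes marked in WT 35.4% were lost.

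Plasma cell genes also held regions, in 10 of 20 genes in JmjD-dead cells and 6 of 20 in WT cells. H3K27ac was listed in both genotypes at 19 of the 20, and 5 of the 13 of those unmarked in WT were gained, beside 25.0% of all such acetylated genes. Gained were TNFRSF13B, the gene of the receptor TACI, with 10 fragments, DERL3, of endoplasmic reticulum degradation, with 9, XBP1, the plasma cell transcription factor, with 7, and FKBP11 and POU2AF1 with 6. SLAMF7, a surface antigen of myeloma cells, was lost and had 8 fragments in WT cells. The regions at TNFRSF13B, at chr17:16971056-16971380, and at SLAMF7, at chr1:160741131-160741370, were in the stricter set. SDC1 had 10 fragments in JmjD-dead cells and 5 in WT cells, and MZB1 10 and 8 at different sites. H3K27ac summits at TNFRSF13B held 216 fragments in JmjD-dead cells and 264 in WT cells, and at XBP1 303 and 363. The H3K27ac library was deeper, so the levels of the marks cannot be compared from these numbers.

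Constitutively active genes gave a comparison. Of 20 housekeeping genes 11 were marked in JmjD-dead cells and 10 in WT cells, with 5 gained, among them PSMB4 with 11 fragments and GAPDH with 8, and 4 lost, TFRC with 5 and PPIA, HPRT1 and VCP with 4. Of 24 cytosolic ribosomal protein genes 14 were marked in JmjD-dead cells and 8 in WT cells, with 6 gained and 0 lost. RPL32 had 15 fragments in JmjD-dead cells and 9 in WT cells, at different sites. All genes of both lists carried H3K27ac in both genotypes. The gains were 5 of 10 housekeeping and 6 of 16 ribosomal protein genes unmarked in WT. For class I genes unmarked in WT and with H3K27ac in both genotypes they were 7 of 12. The losses were 4 of 10 housekeeping and 0 of 8 ribosomal protein genes marked in WT. Of all genes with H3K27ac in both genotypes, 25.0% of those unmarked in WT were gained and 33.3% of those marked were lost. The share of class I genes marked in JmjD-dead cells, 63.6%, thus lay beside 55.0% of housekeeping and 58.3% of ribosomal protein genes. Among all genes it was 22.6% in JmjD-dead cells and 12.9% in WT cells.

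Of 24 Polycomb genes 9 were marked in JmjD-dead cells and 4 in WT cells. SUZ12 and EED, core subunits of PRC2, were gained with 8 and 6 fragments, as were PHF1 and PCGF2 with 8 and CBX8 with 7. EZH2, its methyltransferase, was marked in both, at different sites, with 7 fragments in JmjD-dead cells and 5 in WT cells. Among 18 genes of KDM6A, COMPASS and demethylases 6 were marked in JmjD-dead cells and 4 in WT cells, with DPY30, SETD1B and WDR5 gained and SETD1A lost, by 5 to 8 fragments. Of 24 cell cycle inhibitors and tumour suppressors 6 and 4 were marked, with SOCS3, CDKN2A and EGR1 gained and CDKN1A lost. Of members unmarked in WT, 21.4% of the COMPASS list and 15.0% of the cell cycle list were gained, near the 16.4% of all genes. Marked shares of all genes were 22.6% and 12.9%. All 5 gained Polycomb genes had H3K27ac in both genotypes, as 16 of those unmarked in WT did, and 25.0% of all such acetylated genes were gained.

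**Figure D5:**
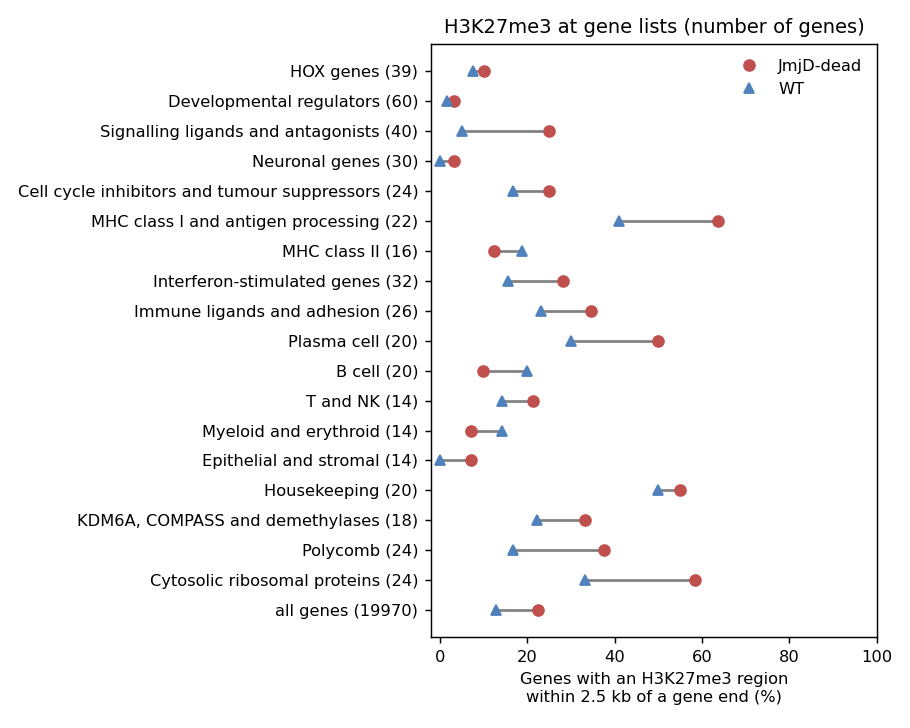
Share of genes (%) with an H3K27me3 region within 2.5 kb of a gene end, by list, in JmjD-dead (circles) and WT cells (triangles), with the number of genes in parentheses. Class I genes show 63.6% in JmjD-dead and 40.9% in WT cells, HOX genes 10.3% and 7.69%, and all genes 22.6% and 12.9%.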

How the data were processed

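Per the labels' protocols, chromatin was fixed with formaldehyde, sonicated, immunoprecipitated and tagmented on beads. The submitters' processing notes name GRCh38, Trimmomatic, Bowtie2 and MACS2 2.1.2, without their roles. The file headers give MACS 2.2.7.1, run without a control, at a q-value of 0.05, with duplicates removed. For each region the authors deposited a pileup signal (fragments at the summit), a fold enrichment (ratio), and −log10 p-values and q-values. Regions were called per library, with 1 library per group.

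Rows with equal coordinates were merged. Gene ends came from RefSeq GRCh38.p14. Regions were ranked by −log10 q, then fold. Genes were named from the 6 best-ranked regions at gene ends in each class, with no region of the other genotype within 10 kb, and KDM6A; up to 4 members per list and state were added, and others in the list accounts were named after their values were seen. Members, lists and tests were chosen with earlier results of these data known. Alternatives were a −log10 q of at least 5, equal lengths, equal lowest fold, input removal, 50% overlap, 2 other H3K27ac splits, dense bins and gene windows. Python 3.11.15 with pandas 2.3.3 and scipy 1.17.1 was used; 4 of 4 steps recovered simulated answers.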

Additional observations from a re-analysis of the deposited data

How the results depend on the processing

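Every one of the 12 other settings kept both shares higher off H3K27ac than on it, while the shares themselves moved. Values are given as gained on and off H3K27ac, then lost on and off it. They were 69.4%, 94.9%, 28.3% and 63.7% with a −log10 q of 5 or more in both lists, 42.7%, 79.0%, 12.3% and 38.1% with that threshold against all regions, and 56.4%, 86.6%, 51.6% and 81.3% at equal list lengths. With 50% overlap they were 81.9%, 96.3%, 50.8% and 79.5%, and without dense bins 72.8%, 94.3%, 56.5% and 83.2%. When H3K27ac regions needed a −log10 q of 5 or more, the gained shares were 64.4% and 91.0% and the share lost off H3K27ac 67.0%, and with H3K27ac of either genotype 68.4%, 94.7% and 79.1%. With the larger lowest fold 65.4% and 92.0% were gained and 42.0% lost on H3K27ac, and without regions on input 68.7% were gained and 44.3% lost on H3K27ac. With an equal lowest pileup over the library mean they were 49.4%, 82.5%, 59.4% and 86.5%, and the gained shares were the same against all WT regions. Without chromosomes 3 and 16, 39.0% were lost on H3K27ac. The last 3 settings were chosen after seeing the data.

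Genes gained and lost numbered 551 and 170 with a −log10 q of 5 or more, 256 and 38 with that threshold against all regions, 1056 and 1485 at equal lengths, 1705 and 537 with windows of 1 kb, and 144 and 34 over promoter windows. With an equal lowest pileup over the library mean they numbered 522 and 1848, and 522 were gained against all WT regions. The causes of these movements were not tested, but the stricter settings and smaller windows admit fewer regions by construction. Gained regions outnumbered lost ones in 10 of the 12 settings.

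No paired analysis was possible because each group had 1 library. Leaving out a replicate could not be run for the same reason. Depth limits the lists: at 5026016 fragments a WT region needed 11.3 times the library mean, so a missing WT region is not shown to be absent.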

Other observations

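Over all genes 22.6% were marked in JmjD-dead cells and 12.9% in WT cells. Of 20 B cell genes 2 were marked in JmjD-dead cells and 4 in WT cells. CR2 and SPIB were gained, with 7 and 6 fragments. CIITA, RAG1, CD79A and BLNK were lost, with 4 to 7 fragments in WT cells. These were all 4 B cell genes marked in WT, while 12.5% of the 16 unmarked ones were gained. Among all genes, 35.4% of those marked in WT were lost and 16.4% of those unmarked were gained. Of 14 T and NK genes 3 were marked in JmjD-dead cells and 2 in WT cells, of 14 myeloid and erythroid genes 1 and 2, and of 14 epithelial and stromal genes 1 and 0. The last was VIM, the intermediate filament gene vimentin, gained with 10 fragments in JmjD-dead cells and with H3K27ac in both genotypes.

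Long stretches of adjoining regions also lay outside genes. In JmjD-dead cells the second longest, of 197 kb, lay over E2F6, a transcriptional repressor, and GREB1 on chromosome 2. The next 3 held no protein-coding gene, at chr1:124587262-124784621, chr5:49393220-49590557 and chr19:26872257-27068033. The 5 longest of WT cells spanned up to 91.3 kb and held no protein-coding gene. The longest stretches of both genotypes lay in the dense bins, and how reads were placed there was not tested. Of the regions in each of the 5 WT stretches, 92.9% to 100% had a JmjD-dead counterpart.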
